A study of Mus musculus with 15 samples.

Results

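The genes described here are 10 immediate early genes, Fos, Fosb, Jun, Junb, Egr1, Egr2, Egr3, Ier2, Atf3 and Btg2, chosen by name from the 55536 genes of the deposited tables. All 10 were found, each under 1 gene identifier, and 9 passed the filter on low values. Egr2 did not, with at most 18 normalized counts in any sample. Immediate early genes are transcribed from factors already present in a resting cell, such as serum response factor (SRF) with its ETS partners ELK1, ELK3 and ELK4, and CREB. Growth factors such as PDGF switch them on through ERK, and so do contraction, stretch, injury and handling of muscle. Their messages are short-lived, so their level in a tissue reflects signals close to the time of sampling.

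Poly(A) RNA was sequenced from 15 skeletal muscle samples of male mice at 2 months of age. The 5 controls were labelled wild type, without a statement on whether they carried a Cre transgene or a floxed allele. The 5 knockout samples were labelled PdgfrB knockout, a deletion confined to myogenin-expressing cells by the study's description. PdgfrB encodes the beta receptor for PDGF. The 5 D489V samples were labelled PdgfrB D489V, a constitutively active form of the receptor, again in myogenin-expressing cells. Myogenin is a transcription factor of differentiating muscle cells, so the endothelial, mural and connective tissue cells of the piece are not the cells the labels name as targeted. The driver line, the muscle, any injury and the litters are not given in the labels, and no batch is named. In whole muscle, fewer cells of a type and less RNA per cell cannot be told apart.

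The normalized counts summed to between 29815559 and 36489777 per sample. The 8 skeletal muscle fibre markers, among them Acta1 and Ckm, were at 10 or more in every sample and summed to at least 5599509. Pdgfrb, the targeted gene, held 1673 to 1848 normalized counts in controls, 958 to 1628 in knockout and 820 to 1062 in D489V, with every knockout and D489V sample below every control and RNA still counted in all samples labelled knockout. Knockout replicate 3, labelled male, held 3165 normalized counts of Xist, the RNA of the inactive X chromosome, against at most 101 in any other sample. Counts of called genes in the comparisons of knockout with D489V are also given without it.

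The AP-1 factors pair through leucine zippers. Fos (ENSMUSG00000021250, chromosome 12, 85473890 to 85477273, plus strand) and Fosb (ENSMUSG00000003545, chromosome 7, 19302696 to 19310051, minus) encode partners that need a JUN protein to bind DNA. Jun (ENSMUSG00000052684, chromosome 4, 95049034 to 95052222, minus) and Junb (ENSMUSG00000052837, chromosome 8, 84974484 to 84978718, minus) encode such JUN proteins, and Atf3 (ENSMUSG00000026628, chromosome 1, 191170296 to 191218039, minus) encodes a stress-induced relative. Ier2 (ENSMUSG00000053560, chromosome 8, 84661331 to 84662852, minus) encodes a nuclear protein of the early response. Btg2 (ENSMUSG00000020423, chromosome 1, 134075170 to 134079120, minus) encodes an antiproliferative cofactor that is also a target of p53. The coordinates are those of whole genes on GRCm38, each annotated as protein-coding.

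Promoter sequence is shown for 5 genes, those called lower in knockout than in D489V whose start region was at hand. The start regions of 4 of them hold the same short element, and that of Jun does not. Atf3, which was not called, and Egr2, which the filter left out, hold it too. Any part of the element in the differences between groups was not tested. RefSeq start windows on GRCm38.p6, 250 bases before to 50 bases after a start, were at hand for 7 of the 10 genes. Those for Egr1, Egr3 and Ier2 were not used here. The core of the cyclic AMP response element, TGACG, which CREB and ATF proteins recognise, occurred on either strand in the windows of 6 of the 7, Fos, Fosb, Junb, Egr2, Atf3 and Btg2, against 20.8% of all 32851 windows. Egr2 had 5 windows in the table and each other gene 1. Each sequence below runs 5′ to 3′ on the gene's strand from 190 to 11 bases before the RefSeq start, with TGACG on either strand in capitals. The runs lie at chr12:85473700-85473879 (plus strand, Fos), chr7:19310056-19310235 (minus, Fosb), chr8:84978759-84978938 (minus, Junb), chr1:134079166-134079345 (minus, Btg2) and chr4:95052233-95052412 (minus, Jun).
Fos: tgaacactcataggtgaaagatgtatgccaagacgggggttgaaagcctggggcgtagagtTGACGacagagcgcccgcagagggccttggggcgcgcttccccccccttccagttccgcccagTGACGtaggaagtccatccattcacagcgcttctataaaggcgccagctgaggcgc
Fosb: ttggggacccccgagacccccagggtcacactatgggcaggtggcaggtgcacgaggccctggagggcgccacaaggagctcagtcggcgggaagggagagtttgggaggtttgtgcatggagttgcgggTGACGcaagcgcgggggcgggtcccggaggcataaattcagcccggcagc
Junb: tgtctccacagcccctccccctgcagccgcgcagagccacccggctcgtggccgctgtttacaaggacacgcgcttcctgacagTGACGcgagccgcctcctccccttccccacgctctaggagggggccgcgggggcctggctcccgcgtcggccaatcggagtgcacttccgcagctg
Btg2: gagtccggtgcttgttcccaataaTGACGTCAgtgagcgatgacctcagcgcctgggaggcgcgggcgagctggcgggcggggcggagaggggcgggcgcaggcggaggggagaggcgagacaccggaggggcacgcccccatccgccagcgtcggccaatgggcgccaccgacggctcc
Jun: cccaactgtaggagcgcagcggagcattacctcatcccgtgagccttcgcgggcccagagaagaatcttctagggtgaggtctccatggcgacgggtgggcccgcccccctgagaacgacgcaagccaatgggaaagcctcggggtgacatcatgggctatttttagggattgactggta

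The Fos window held TGACG at 129 and 66 bases before the start, and Fosb and Junb held it at 60 and 106 bases before theirs. In Btg2 both strands overlapped to give the full palindrome TGACGTCA at 166 bases before the start, an element found in 1.79% of all windows and in no other of these 7 genes. Jun had no TGACG, and close variants of these letters, such as the tgacatca in the printed Jun run, were not searched for. Further motifs were searched on both strands. The letters TATAAA were in the windows of Fos and Junb (13.6% of all). In Fos they lay 33 bases before the start, and in Junb they began at the RefSeq start itself. By the gene coordinates given above, Junb begins farther downstream, at 84978718 on the minus strand, and the letters lie before that start. The CArG box that SRF binds was in windows of Egr2 (1.63%), and the AP-1 motif TGANTCA was in none (7.81%). The matches describe these letters in these windows only.

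Levels between genes were compared per kilobase of annotated exon. Jun was the most abundant in each group, at 1114 ± 283 (SD, n = 5) normalized counts per kilobase in controls, 1038 ± 275 in knockout and 1517 ± 207 in D489V, and its samples did not overlap with those of the next gene in any group. Below it, in controls, came Ier2, Fos, Btg2, Junb and Egr1, at means of 501 to 318 per kilobase, and the samples of each gene overlapped with those of the next. Atf3 (97.4), Fosb (39.5) and Egr3 (24.7) followed, each overlapping with its neighbour. Egr2 was last at 1.12 ± 0.53 per kilobase, apart from all others. The order was not the same in D489V, where Fos held the second place at 727 ± 188, although it overlapped with Ier2 at 640 ± 184 and Ier2 with Junb at 625 ± 82.6. In knockout Fos held the fifth place, at 211 ± 61.3.

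Knockout and D489V muscle, compared directly, differed in most of these genes. Of the 9 tested, 8 were called lower in knockout than in D489V at a Benjamini-Hochberg adjusted p under 0.05 in limma, and none was higher. Over all 15299 genes tested, 20.8% were called, 3181 in all (2276 without knockout replicate 3), and 10.3% of those tested were lower in knockout. The 5 with no overlap between groups were Fosb, Fos, Egr1, Junb and Ier2, which were 2.15-fold to 4.26-fold lower. Egr3 was 2.83-fold lower, within that range, but its groups overlapped. Groups did not overlap for 13.9% of all genes tested, and for 6.7% in that direction. The median difference of the 9 genes was -1.31 on the log2(normalized count + 1) scale, against 0.0004 over all genes tested. Without knockout replicate 3 the median was -1.23, 6 genes were called and the same 5 did not overlap. Without knockout replicate 1, knockout replicate 5, D489V replicate 1 or D489V replicate 3 there were 5 called, Jun, Egr3 and Btg2 being lost each time.

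**Figure D1:**
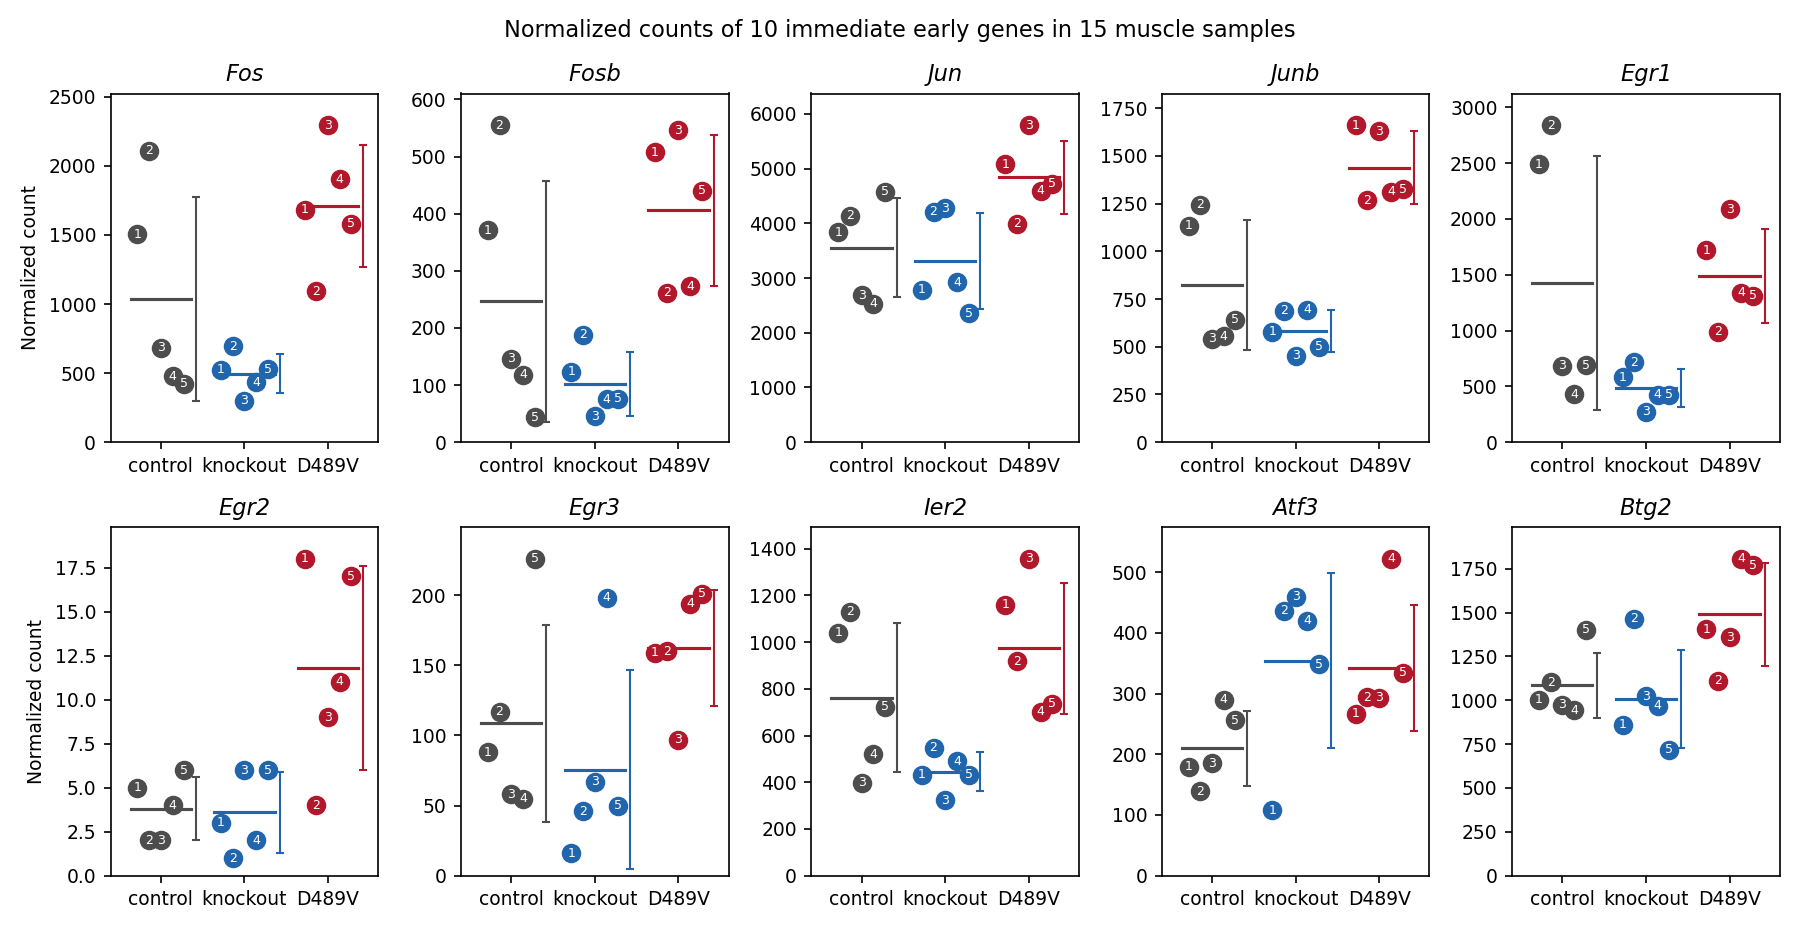
Normalized counts of each gene (linear axes from 0, a separate scale for each gene) in 5 control, 5 knockout and 5 D489V samples; each point is a sample marked with its replicate number, the horizontal line is the group mean and the bar beside it ± 1 SD. For Fos, Fosb, Junb, Egr1 and Ier2 all D489V points lie above all knockout points, while controls 1 and 2 lie above controls 3 to 5.

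Fos is described first among the AP-1 genes. In controls 1 to 5 it held 1504, 2109, 683, 478 and 423 normalized counts. Knockout samples held 523, 695, 301, 435 and 529, and D489V samples 1682, 1092, 2295, 1902 and 1581. All D489V samples were above all knockout samples, and the controls spanned both ranges, with controls 1 and 2 among the D489V values and controls 3 to 5 among those of the knockout. The difference between knockout (497 ± 144) and D489V (1710 ± 441, SD, n = 5) was -1.79 on the log2 scale (SE 0.22, limma adjusted p 0.00155).

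Fosb, a close relative of Fos, followed it at lower counts. The controls held 371, 555, 146, 118 and 44, the knockout samples 123, 188, 45, 75 and 76, and the D489V samples 508, 262, 546, 273 and 440. Again no knockout sample reached the lowest D489V sample, control 1 lay within the D489V range and control 2 just above it, and controls 3 to 5 lay below it. The difference of -2.09 (SE 0.35, limma adjusted p 0.00403) was the largest among the 9 genes tested.

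Junb varied least of the 9 genes within the knockout and D489V groups. It held 1135, 1245, 543, 555 and 641 in controls, 579, 688, 454, 694 and 500 in knockout and 1661, 1267, 1630, 1311 and 1326 in D489V. The lowest D489V sample was above the highest control, which made Junb the sole gene of the 10 whose D489V and control samples did not overlap. Knockout differed from D489V by -1.31 (SE 0.14, limma adjusted p 0.00053).

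Jun, the most abundant of the genes, changed by less. Its values were 3833, 4135, 2685, 2529 and 4573 in controls, 2782, 4209, 4277, 2922 and 2357 in knockout, and 5076, 3994, 5793, 4599 and 4727 in D489V. Knockout replicates 2 and 3 lay above D489V replicate 2, so the groups overlapped. The difference was -0.58 (SE 0.17, limma adjusted p 0.0311), and over 19 alternative settings and left-out samples the call held in 12, with adjusted p from 0.0208 to 0.0757.

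Atf3, a stress-responsive gene, departed from the other genes. It held 179, 139, 185, 290 and 256 in controls, 108, 436, 459, 420 and 348 in knockout, and 267, 294, 293, 522 and 334 in D489V. In 4 of 5 knockout and 4 of 5 D489V samples it was above the highest control. Knockout replicate 1 was the lowest of all 15 samples. The difference between knockout and D489V was -0.07 (SE 0.35, limma adjusted p 0.908), too wide to show that the groups were alike, and without knockout replicate 1 it was 0.32 (adjusted p 0.238).

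The EGR genes encode zinc finger factors, and their coordinates, again on GRCm38, are those of Egr1 (ENSMUSG00000038418, chromosome 18, 34859823 to 34864984, plus), Egr2 (ENSMUSG00000037868, chromosome 10, 67535475 to 67542188, plus) and Egr3 (ENSMUSG00000033730, chromosome 14, 70077203 to 70082614, plus). Of these, Egr1 reached the highest counts. The controls held 2489, 2840, 684, 430 and 691, the knockout samples 580, 718, 272, 423 and 423, and the D489V samples 1718, 991, 2085, 1338 and 1311. Controls 1 and 2 exceeded every D489V sample, controls 3 to 5 lay below all of them, and all knockout samples did too. Knockout differed from D489V by -1.65 (SE 0.25, limma adjusted p 0.00307).

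Egr3, a factor needed for muscle spindles, was less uniform. It held 88, 117, 58, 55 and 226 in controls, 16, 46, 67, 198 and 50 in knockout and 159, 160, 97, 194 and 201 in D489V. Knockout replicate 4 lay within the D489V range and the other 4 knockout samples below it. The difference of -1.50 (SE 0.50) had a limma adjusted p of 0.0497, and the call held in 5 of 19 alternatives (adjusted p 0.0102 to 0.0995).

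Egr2 was near the lower limit of the counts in all groups. Its values were 5, 2, 2, 4 and 6 in controls, 3, 1, 6, 2 and 6 in knockout and 18, 4, 9, 11 and 17 in D489V. In 4 of 5 D489V samples it was above every control, and in 3 of 5 knockout samples it was below every D489V sample. Exact two-sided permutation tests, 3 in all, gave p of 0.0317 when D489V was set against control, 0.0238 when knockout was set against D489V and 0.762 when knockout was set against control (0.0475, 0.0475 and 0.762 after Benjamini-Hochberg adjustment over the 3). With no filter on low values, limma gave it adjusted p of 0.563 and 0.101 over all genes in the first and second of these comparisons.

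Ier2 resembled Fos. It held 1041, 1129, 397, 520 and 724 in controls, between 322 and 547, with a median of 433, in knockout and 1159, 919, 1357, 702 and 736 in D489V. Controls 1 and 2 were again the highest controls, and all knockout samples lay below all D489V samples. The difference was -1.11 (SE 0.19, limma adjusted p 0.00504).

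Btg2 and Jun had the smallest differences of the 8 genes called. The controls held 1003, 1103, 973, 942 and 1402, the knockout samples 861, 1466, 1022, 970 and 718, and the D489V samples 1405, 1110, 1359, 1807 and 1769. Knockout replicate 2 was the only knockout sample within the D489V range. The difference was -0.58 (SE 0.18, limma adjusted p 0.0423), a call that held in 8 of 19 alternatives (adjusted p 0.0133 to 0.0951).

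Against controls, D489V samples had higher mean log2 values for all 9 genes tested, from 0.42 in Ier2 and Egr1 to 1.15 in Fosb, with a median of 0.71 (0.0019 over all genes tested). A log2 change above 0 was seen for 50.4% of all genes tested. None of the 9 was called in limma, where adjusted p ran from 0.221 to 0.821 and 0.0587% of 15339 genes were called. Fos, Jun, Junb, Atf3 and Btg2, 5 of the 9, had an unadjusted limma p under 0.05, as did 9.43% of all genes tested, 5.37% in the higher direction. Junb had the smallest adjusted p of the 9, with a difference of 0.89 (SE 0.23, limma adjusted p 0.221), and its 5 D489V samples were above all controls, as was the case for 1.1% of genes tested. Without D489V replicate 2, Jun and Egr2 did not overlap with controls either, which made 3 genes; 2 were so without D489V replicate 1, control replicate 4 or control replicate 5. Atf3 differed by 0.71 (SE 0.23, limma adjusted p 0.333) and Fos by 0.97 (SE 0.41, adjusted p 0.492).

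Knockout samples had lower mean log2 values than controls for 8 of the 9 genes tested, against 48.5% of all genes. The median was -0.69 (0.0106 over all genes tested), and the differences ran from -1.23 in Egr1 to 0.64 in Atf3, the exception. No gene of the 9 was called (limma adjusted p 0.312 to 0.819, with 0.00656% of 15234 genes called). Egr1 (-1.23, SE 0.50) and Ier2 (-0.69, SE 0.27) had an unadjusted limma p under 0.05, as did 15.1% of all genes tested and 7.42% in the lower direction, and each had an adjusted p of 0.312. No gene had groups without overlap, which 2.24% of genes tested had. Without knockout replicate 3 the median was -0.58 and again none was called. Without knockout replicate 1 there was 1 gene without overlap, Atf3, with the other 4 knockout samples above all controls. Both comparisons use the same controls, and their values are therefore not independent of each other.

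**Figure D2:**
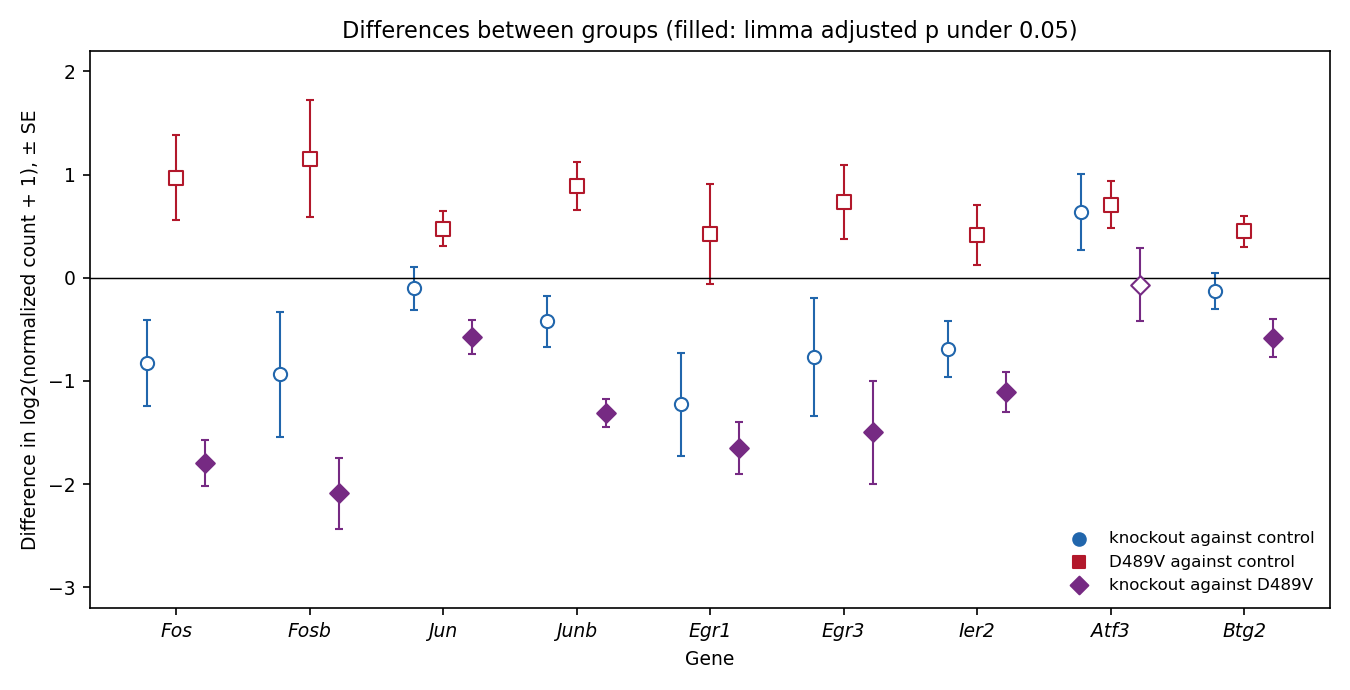
Differences between groups in log2(normalized count + 1) for the 9 genes tested, with bars of ± 1 SE from limma; filled symbols are past an adjusted p of 0.05. Knockout against D489V is filled for 8 genes and near 0 for Atf3, while all symbols for D489V against control lie above 0 and none is filled.

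The controls varied widely in several of these genes. The standard deviation of log2 values in controls was 1.43 for Fosb, 1.22 for Egr1 and 1.02 for Fos, against a median of 0.27 over 14948 genes. It exceeded that of 98%, 97.1% and 95.8% of those genes. In D489V samples the same 3 genes had standard deviations of 0.50, 0.41 and 0.40, and Junb had 0.19, against a median of 0.23. Btg2 was the least variable in controls, at 0.23, a value that 40.7% of genes were below.

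The controls did not all sit between the mutants. Control 3 lay within the knockout range for all 10 genes and below every D489V sample for all 10, and control 4 lay within the knockout range for 10 and below every D489V sample for 8. For Egr2, Atf3 and Btg2 every control lay within the knockout range, so these genes do not set controls 3 and 4 apart there. Controls 1 and 2 were above every knockout sample for the same 5 genes, Fos, Fosb, Junb, Egr1 and Ier2. Control 5 differed by gene. It was the lowest control in Fos and Fosb and the highest in Jun, Egr2, Egr3 and Btg2. Within the mutants, D489V replicate 2 was the lowest D489V sample for 7 of the 10 genes, and knockout replicate 3 was the lowest knockout sample for 5, Fos, Fosb, Junb, Egr1 and Ier2, while it was the highest for Atf3 and Jun.

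**Figure D3:**
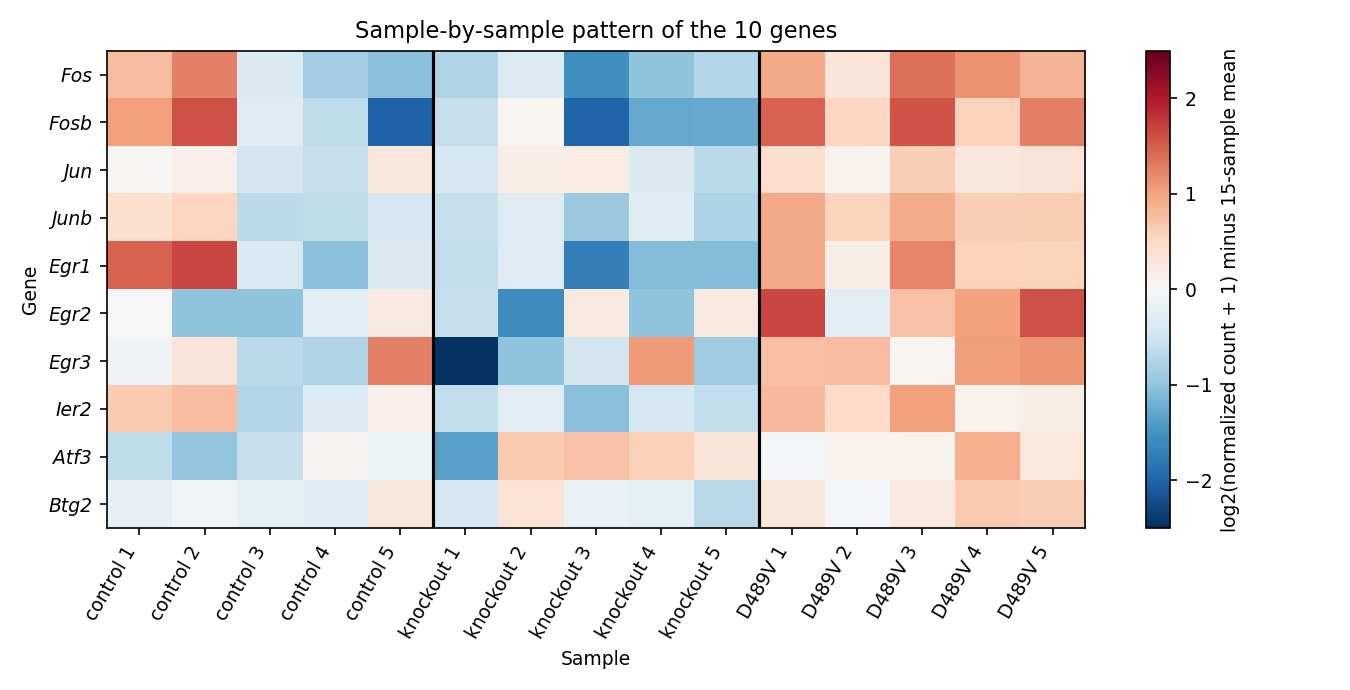
Log2(normalized count + 1) of each gene (rows) in each sample (columns) minus the gene's mean over all 15 samples; red is higher and blue lower. Controls 1 and 2 are red for Fos, Fosb, Junb, Egr1 and Ier2, in the same direction as the D489V samples, and Atf3 does not follow the other rows.

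The rest of the immediate early response was examined through lists of other genes. Among 29 other immediate early genes, all tested, 18 were called lower and 1 higher in knockout than in D489V (10.3% and 10.5% of all genes), with a median of -0.72. Without knockout replicate 3 they were 17 and 1, and without D489V replicate 2 they were 12 and 0. The 5 with the smallest adjusted p were Ccn1, Klf10, Apold1, Rhob and Zfp36. Ccn1, a matrix protein gene, held 639 to 842 normalized counts in knockout, 919 to 1949 in controls and 2302 to 3130 in D489V, with no overlap between any groups, and differed by -1.79 (SE 0.11, limma adjusted p 4.98e-06). Klf10, a TGF-beta-inducible repressor, differed by -1.13 (adjusted p 1.81e-04) and Rhob, a small GTPase gene, by -0.90 (adjusted p 0.00127). Zfp36 encodes the protein that binds and destabilises AU-rich messages, and differed by -1.18 (adjusted p 0.0021). Nr4a3, an orphan nuclear receptor gene named here after its value was seen, was the one higher in knockout. It held 180 to 897 in knockout against 96 to 206 in D489V, a difference of 1.64 (SE 0.43, limma adjusted p 0.0226), and the call was lost without knockout replicate 5 (adjusted p 0.0528), D489V replicate 1 (0.0617) or D489V replicate 2 (0.0557).

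Apold1, an endothelial early response gene, was the only gene of these lists called against controls. It held 507 to 882 in D489V, 209 to 313 in controls and 51 to 140 in knockout. The change was 1.37 (SE 0.17, limma adjusted p 0.0243) in D489V against control and -2.86 (SE 0.26, adjusted p 2.55e-04) in knockout against D489V. In knockout against control it was -1.49 (SE 0.26, adjusted p 0.167). The D489V call against controls was lost without control replicate 2 (adjusted p 0.0994), control replicate 4 (0.098), D489V replicate 2 (0.129) or D489V replicate 5 (0.11), while the values of the D489V and control samples do not overlap. In D489V against control 26 of the 29 genes had a change above 0, with a median of 0.52. In knockout against control 21 of 29 were below 0, with a median of -0.27.

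Among AP-1 partners, 6 of 9 genes were tested and 3 were called lower in knockout than in D489V. Over all genes tested, 10.3% were called lower. Fosl2, another FOS relative, differed by -0.49 (limma adjusted p 0.00742), and the small MAF genes Mafk and Maff by -0.41 and -0.63 (adjusted p 0.0361 and 0.039). The count was 3 without knockout replicate 3, and 1 without knockout replicate 1, 2 or 4 or D489V replicate 1, 2 or 5. Of the 2 tested genes of the remaining EGR set, Nab2, whose protein binds EGR factors and represses them, was called lower. It held 222 to 270 in knockout, 282 to 421 in controls and 347 to 430 in D489V, a difference of -0.68 between knockout and D489V (SE 0.10, limma adjusted p 0.00247). The count of 1 held without knockout replicate 3.

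Of 10 upstream factors, all tested, 1 was called lower and 1 higher in knockout than in D489V, 7 had a change above 0, and the median was 0.22. That is close to the shares over all genes tested, 10.3% lower and 10.5% higher, and is no result about the list. The counts were 1 and 1 without knockout replicate 3. Without knockout replicate 1, 2 or 4 or D489V replicate 1 or 3 none was called higher, and without D489V replicate 4 there were 3. Elk3, an SRF partner rich in endothelium, held 442 to 654 in knockout, 723 to 1206 in controls and 810 to 1080 in D489V (-0.80, limma adjusted p 0.0047). Crem, whose products include repressors acting at the cyclic AMP response element, was higher in knockout by 0.40 (adjusted p 0.0345). Srf, which is not among the called genes and is given for its role, held 2527 to 3321 in knockout and 1820 to 3027 in D489V (0.37, adjusted p 0.0796).

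Of 10 delayed feedback genes that damp ERK signalling, 5 were called lower in knockout than in D489V and none higher. Over all genes tested the shares were 10.3% and 10.5%, and the median of the 10 genes was -0.52. The 5 called were Spry2, Dusp1, Dusp6, Spred2 and Spry4. Dusp6, an ERK phosphatase gene, held 480 to 565 in knockout, 694 to 746 in controls and 652 to 804 in D489V (-0.44 between knockout and D489V, limma adjusted p 0.00752). Every control was thus above every knockout sample and within the D489V range, and the change against control, -0.42, had an adjusted p of 0.199. Dusp1, a phosphatase gene that is itself induced early, differed by -0.80 (adjusted p 0.004) and Spry2 by -0.59 (adjusted p 0.00299). The count of 5 held without knockout replicate 3. None of the AP-1, EGR, upstream or feedback genes was called against controls.

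**Figure D4:**
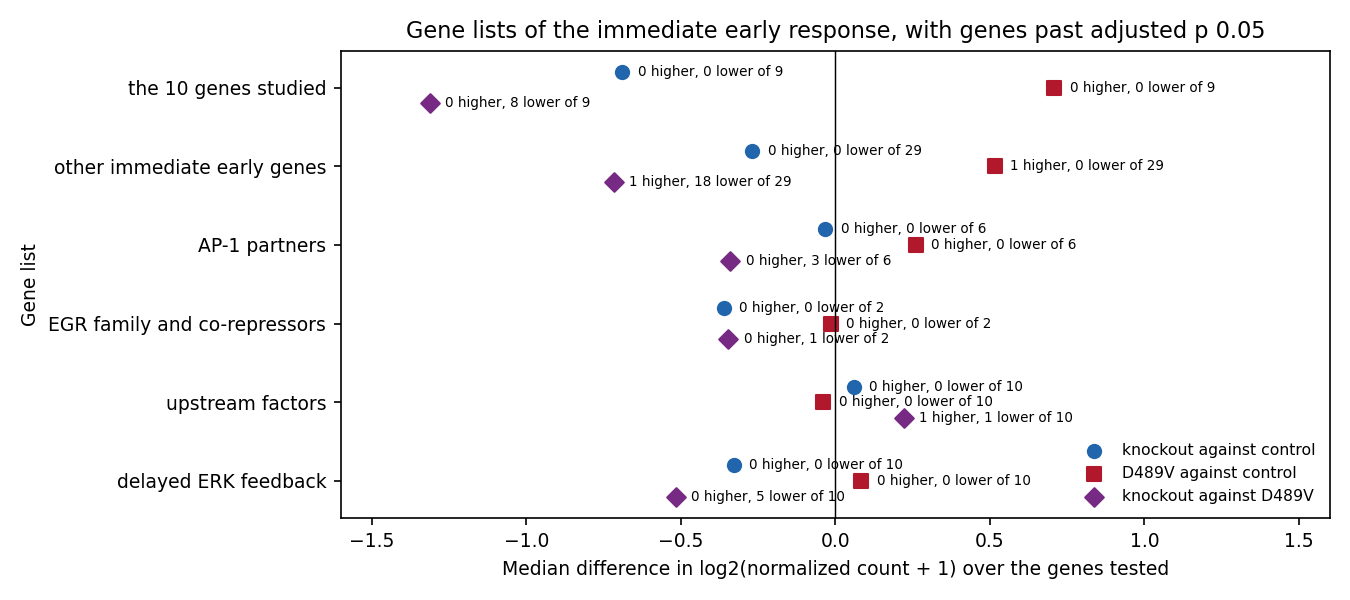
Median difference in log2(normalized count + 1) over the tested genes of the immediate early genes studied and 5 lists of their pathway, for 3 comparisons, with the number of genes past a limma adjusted p of 0.05 in each direction. In knockout against D489V the 10 genes studied lie at -1.31, the other immediate early genes at -0.72 and the upstream factors at 0.22; lists of cell type markers are not drawn, and several lie farther from 0, among them adipocyte (-1.85) and erythrocyte (-1.67) markers.

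Markers of other cell types moved in the same comparison. In knockout against D489V, 10.3% of all genes tested were called lower and 10.5% higher. Of the markers, 8 of 8 endothelial, 5 of 6 adipocyte, 6 of 6 Schwann and 5 of 5 erythrocyte were called lower. Among mural markers 4 of 8 were lower and 1 higher. Without knockout replicate 3 these counts were 8, 5, 4 and 5, and 4 lower and 0 higher for mural. Without D489V replicate 1 the Schwann count was 3, and without D489V replicate 2 the mural counts were 3 and 0. Summed endothelial markers lay between 10174 and 15202 in knockout, 15942 and 23151 in controls and 18137 and 21442 in D489V, and controls 1 and 2 held the highest sums of the controls, at 23151 and 20249. Adipocyte sums lay between 11540 and 19929 in knockout, 7083 and 65563 in controls and 29505 and 95944 in D489V. Schwann sums lay between 5672 and 8894, 7987 and 12925, and 11310 and 45766 in the same order, and erythrocyte sums between 3175 and 8032, 5671 and 8413, and 12454 and 22120. No marker of these lists was at 0 in all samples. The part of these cell types in the differences of the immediate early genes was not tested. Of the 8 fibre markers, 8 macrophage markers, 6 satellite cell markers and 6 markers of fibro-adipogenic progenitors, none was called, and their medians were -0.10, 0.06, -0.02 and -0.10. Without knockout replicate 3, 1 macrophage and 1 fibro-adipogenic marker were called higher in knockout. None of the 6 slow fibre markers, of the 2 neutrophil markers tested of 6, or of the 3 lymphocyte markers tested of 6 was called.

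**Figure D5:**
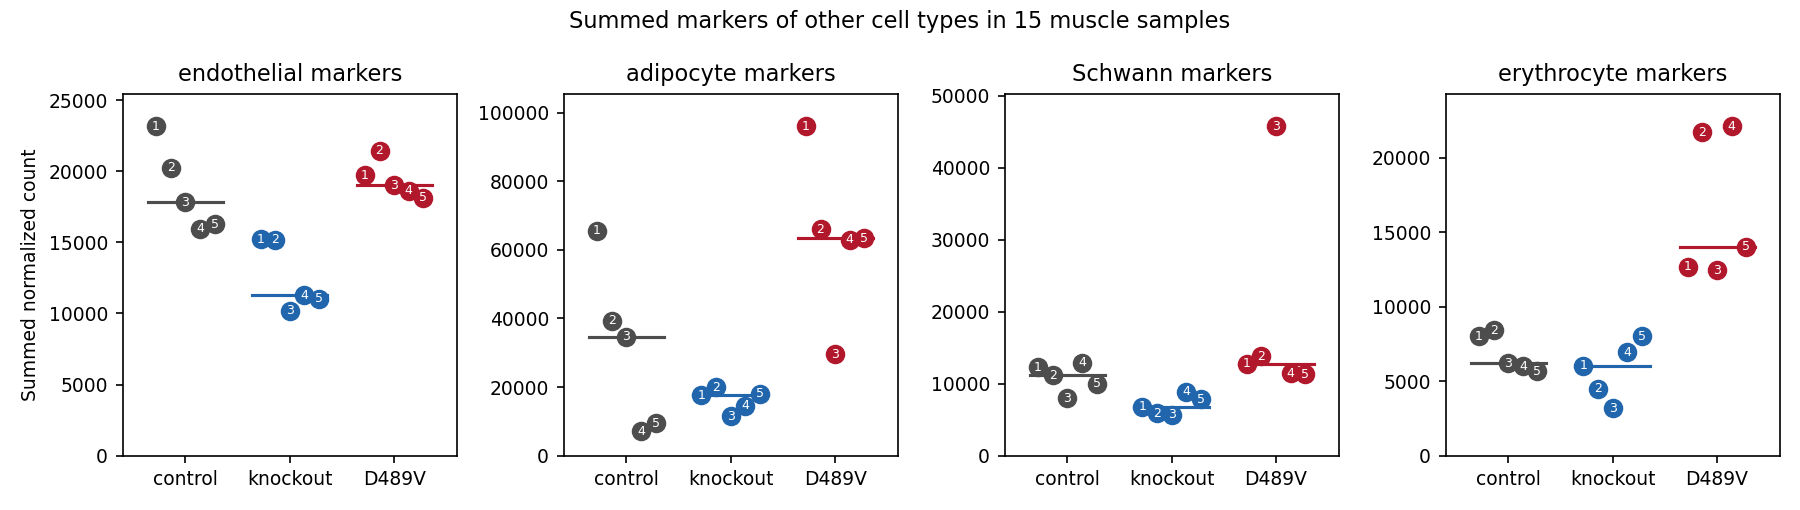
Summed normalized counts (linear axes from 0, a separate scale for each panel) of 8 endothelial, 6 adipocyte, 6 Schwann and 5 erythrocyte markers in each sample; points carry replicate numbers and lines are group medians. D489V samples lie above knockout samples in each panel, and D489V replicate 3 stands apart in Schwann markers at 45766.

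Genes outside the set were ranked by their likeness to it, as the Pearson correlation over 15 samples between log2(normalized count + 1) and the mean standardised value of the 9 tested genes. Among the 5 most alike of 14948 genes were Zfp36 (0.92), Plcd3 (0.91), Galt (0.91) and Marveld1 (0.91). Zfp36 held 510 to 914 normalized counts in knockout, 660 to 1279 in controls and 1274 to 1883 in D489V. Plcd3, a phospholipase C gene, held 153 to 217, 210 to 307 and 362 to 502 in the same order. After each group's mean was removed the correlations of these 4 were 0.70 to 0.76, computed over the same 15 samples. Of the 9 genes, Junb was most like the mean of the set that includes it (0.95) and Atf3 least (0.16). All these values share the same 15 libraries and are given as a description.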

How the data were processed

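The deposited values, treated as a score, are gene counts that the authors normalized between samples, by the tables' names, and gave as whole numbers. The submitters' processing notes name Trim Galore 0.6.0, cutadapt, FastQC, STAR 2.7.0e, DESeq2 1.26.0 and GRCm38, without roles. The counting tool and normalization method are not given in the sources used here. Each of 2 tables held the 5 controls and 1 other group. The control values were identical for all 55536 genes, and median ratios to the geometric mean over samples were 1.0069 to 1.0097, so all groups were compared on 1 scale. Read depth per sample is not given, so no counting intervals are printed. Spearman correlations between samples were 0.951 to 0.993.

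Tables were joined by gene identifier, and all 55536 matched GENCODE M21 (GRCm38), the source of coordinates and exon lengths. Each comparison was fitted on its 10 samples by limma 3.58.1, run under R 4.3.3, after log2(value + 1). Tests were two-sided, with lmFit and trended eBayes, and covered genes at 10 or more in at least 5 samples, with Benjamini-Hochberg adjustment over all genes tested. Fold changes on this scale understate those of low genes. The fit was tested on simulated data. Exact permutation tests of 5 against 5 cannot give p below 0.00794. The p-values set each difference between groups against the spread within groups and treat the samples as independent. Labels do not say whether replicates are separate litters or days, and with shared ones the p-values could be too low.

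The members, lists and tests were chosen with earlier results of these data known. All members are named. Of each other pathway list the called genes are named, at most 5 per comparison by adjusted p, as are the 5 genes most like the members, of which 1 is not reported here. Nr4a3, Srf and the heat shock genes were named after their values were seen. Alternatives changed the pseudocount, filter, scaling, variance model and samples fitted, added a replicate block, and left out each sample. Applying these to the lists was chosen after seeing the data. Python 3.11.15, pandas 2.3.3, numpy 2.4.6 and matplotlib 3.10.9 were used for tables and plots.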

Additional observations from a re-analysis of the deposited data

Results flagged for a closer look

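Of 30 groups of values, the 10 genes in 3 groups of 5 samples, 1 had a sample far from the others, where chance at 1 in 20 gives 1.5. Atf3 in knockout replicate 1 was 108 normalized counts against 348 to 459 in the other knockout samples, a gap of 0.808 of the group's range on the log2 scale, where 0.71 was the limit. The other 4 knockout samples lay above all controls. The cause was not tested.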

How the results depend on the processing

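The 5 genes whose knockout and D489V samples did not overlap, Fos, Fosb, Junb, Egr1 and Ier2, stayed below adjusted p 0.05 in limma in all 19 alternatives, with the highest adjusted p at 0.0279 (Egr1). The calls of Jun, Egr3 and Btg2 are within reach of the threshold: of 172 single values in knockout against D489V, 33 lost it, all of these genes except 1 for Egr2, which limma did not call with no filter (adjusted p 0.101). The number of genes called in knockout against D489V was 5 with eBayes without trend and 5 to 7 with 1 sample left out, and the cause was not tested. It was 0 in all alternatives for both comparisons with controls. Leaving out 1 sample gave medians of -0.90 to -0.43 in knockout against control, 0.54 to 0.77 in D489V against control and -1.38 to -1.10 in knockout against D489V, and 0 to 1, 1 to 3 and 5 to 7 genes without overlap. Signs turned in 3 of 516 single values: Jun in knockout against control was 0.01 without knockout replicate 5, and Atf3 in knockout against D489V was 0.32 without knockout replicate 1 and 0.095 without D489V replicate 4 (-0.20 to 0.32 with any 1 sample left out). The labels do not say whether equal replicate numbers pair samples. Same-numbered deviations from group means correlated at -0.21 to 0.24 in knockout against control, -0.40 to 0.39 in D489V against control and -0.11 to 0.10 in knockout against D489V. In the same order 3, 4 and 2 of 10 samples matched best with their own number. These values cannot exclude shared litters or days. With the replicate block 7 genes were called in knockout against D489V, Btg2 being lost (-0.58, adjusted p 0.0951), and 0 in the comparisons with controls. Apold1 in D489V against control lost its call with the replicate block (adjusted p 0.0733) and with all 15 samples in 1 fit (0.0559), a fit that called it lower in knockout against control (-1.49, adjusted p 0.0288, against 0.167). Over the table the genes called in knockout against D489V numbered 3181, but 1415 without D489V replicate 1, 1540 without D489V replicate 2 and 2014 without D489V replicate 3. Over all alternatives they numbered 1 to 16 in knockout against control and 1 to 28 in D489V against control. Erythrocyte markers called higher in D489V against control numbered 3 of 5 with pseudocount 5, no filter, upper-quartile rescaling or robust eBayes, and 0 otherwise, left-out samples apart. Rounding and low counts limit Egr2, which the filter left out.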

Other observations

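Heat shock genes respond to heat and proteotoxic stress. Of 8 tested in knockout against D489V, Hsph1 was higher in knockout (2888 to 3595 normalized counts against 1695 to 2461, a log2 difference of 0.66, limma adjusted p 0.00392), as was the cochaperone gene Bag3 (0.44, adjusted p 0.0495). Dnajb1 was lower (267 to 328 against 363 to 503, -0.51, adjusted p 0.0119). These counts of 2 higher and 1 lower were 1 higher and 2 lower without knockout replicate 3, and ran from 1 to 3 higher and from 1 to 2 lower with any 1 sample left out. Over all genes tested 10.5% were called higher and 10.3% lower, and the counts are no result about the list. The stress-inducible Hspa1a and Hspa1b held 94 to 361 and 83 to 269 in knockout, 69 to 214 and 94 to 170 in controls, and 207 to 460 and 128 to 328 in D489V. Neither was called in any of the 3 comparisons, in which the lowest adjusted p was 0.139, for Hspa1a in knockout against D489V.

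Lymphocyte markers summed to 3791 in control 5, and to 1182, 3427 and 977 in knockout 3, 4 and 5, against 17 to 177 in the other 11 samples. Slow fibre markers summed to 48578 to 284423 in controls, 57136 to 290096 in knockout and 59819 to 233948 in D489V, so their range within each group was wide and the groups overlapped.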
